A study of Mus musculus with 16 samples.

Results

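The comparison described here is that of the LMP1 with the Ctr tumour organoids, the groups of tumour organoid libraries whose titles carry no Lung prefix. It takes in 5 of the 16 libraries of the series, 3 Ctr and 2 LMP1, chosen by their titles and read from the raw count columns of the table that sets LMP1 against Ctr. Organoids are 3-dimensional cell cultures. They were established from C57BL/6 mouse tumours that had grown in recipient mice after transplantation into the nasopharynx, the space behind the nose. Ctr has the genotype TMP, which is Trp53-/-, Myc and sgCdkn2a, a guide RNA against Cdkn2a, and LMP1 has the genotype TMPL, which is the same with LMP1 added. All 5 libraries therefore share the Trp53, Myc and Cdkn2a alterations, and the sources used here do not give the vector or promoter that drives Myc or LMP1, nor the clones, animals or cultures behind each library. The labels call both LMP1 libraries metastasis and all 3 Ctr libraries primary, so genotype and the labelled stage cannot be told apart here. The 5 tumour libraries with a Lung prefix, Lung-Ctr (TMP, n = 2, labelled primary) and Lung-LMP1 (TMPL, n = 3, labelled metastasis), were fitted together with them, to share 1 estimate of the spread, and served for the test of a difference between contrasts. Libraries are named by group and replicate, as in Ctr 1.

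LMP1 is a membrane protein of Epstein-Barr virus, the virus found in most nasopharyngeal carcinomas. It signals without a ligand through TRAF and TRADD adaptors to NF-kB, MAP kinases and other pathways, and it is known for lowering E-cadherin and raising motility in epithelial cells. Nasopharyngeal epithelium is held together by tight junctions, cadherin junctions and desmosomes, and it is fixed to a basement membrane of epithelial laminin by hemidesmosomes. Transcription factors such as GRHL2, OVOL and p63 keep that programme on. SNAIL, ZEB and TWIST factors repress it in the epithelial-mesenchymal transition (EMT), in which cells exchange epithelial for mesenchymal genes.

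Levels are given as CPM, the usual depth-scaled count of a gene, with the TMM factors of a fit of the 10 tumour libraries, and a difference is LMP1 minus Ctr on the log2 scale with its standard error (SE). A fold is the ratio of the group means of CPM. A gene was called changed at an adjusted p under 0.05 in edgeR's quasi-likelihood test. Total counts ran from 13617193 to 18067227 over the 5 libraries, and a floor of 3 counts lies between 0.166 and 0.2203 CPM, which covers counting error only. The 2 LMP1 libraries were far closer to each other than any Ctr pair, with a Spearman rho across genes of 0.992 against 0.9455 to 0.9527, where genes are not independent replicates. Their counts still differed by more than counting noise: the chi-square per gene had a mean of 14.1 and a median of 3.03, against medians of 8.68 to 15.9 for the Ctr pairs, and 44.9% of genes differed at an unadjusted p under 0.05, against 64.5% to 73.2%. This does not show that they come from separate animals or cultures, and they were counted as 2 samples as labelled. No replicate is labelled by its animal or culture, so a p-value here covers no more than the variation among these libraries.

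A pair of Ctr libraries stood apart in ways that touch the results. Ctr 2 lay at 23.2 on the first principal component of the 10 tumour libraries, between the other Ctr libraries at -32.9 and -22.6 and the LMP1 libraries at 97.8 and 87.2. In Ctr 2, 120 genes at 5 CPM or more were at least 8 times the higher of Ctr 1 and Ctr 3, and 77 of these were also at least 8 times that level in both LMP1 libraries. The same rule found 31 such genes for Ctr 1 and 4 for Ctr 3, of which 0 were as high in both LMP1 libraries. Ctr 2 carries mesenchymal genes beside its epithelial genes, and whether it holds a mixture of cells was not tested. Ctr 3 was low in interferon-response genes and high in genes of chromosome 16, as given below.

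Of the altered genes, Trp53 was read at 56.2, 74.9 and 65.04 CPM in Ctr 1, 2 and 3 and 99.9 and 105 CPM in LMP1 1 and 2, with a difference of 0.65 (SE 0.20) and an adjusted p of 0.0591. Reads of Trp53 were thus present in every library, and where in the gene the deletion lies is not given in the sources used here, so this count checks nothing about it. Cdkn2a was read at 301, 220.5 and 217 CPM in Ctr 1, 2 and 3 and 364 and 319 CPM in LMP1 1 and 2 (adjusted p = 0.454), and a guide RNA need not lower a transcript. Myc rose 2.69-fold, from 793, 642 and 620.1 CPM to 1912 and 1771 CPM, with a difference of 1.43 (SE 0.28) and an adjusted p of 0.0138. Counts cannot separate a transgenic from a native mouse Myc transcript. LMP1 itself, a viral gene, has no entry among the mouse genes of the table, so the counts do not check its expression.

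Of 13460 genes tested, 2210 (16.4%) were called: 991 (7.36%) higher and 1219 (9.06%) lower in LMP1, while the median difference over all genes tested was -0.01. All 2210 had Ctr and LMP1 levels that did not overlap. Among all 13460 genes tested, called or not, 3823 were higher and 3746 lower in LMP1 without overlap. Changes of at least 4-fold, here by the fitted difference and not the ratio of mean CPM, were mostly losses, 460 lower against 147 higher. The count rests on both LMP1 libraries: it was 25 without LMP1 1 and 126 without LMP1 2, in fits where the lone sample is assumed to vary like the other groups. It was 1670, 1920 and 1454 without Ctr 1, 2 and 3. With a correction for GC content and transcript length 1116 genes were called, of which 989 were among the 2210 and 127 were not, and the share of higher calls moved from 44.8% to 39.6%. Differences rose with GC content (rho 0.362 across 13008 genes). For gene lists, the shares of all genes tested, 7.36% higher and 9.06% lower, are the background to read each count against. Calls among the 640 tested list members, 164 in all, were 3 without LMP1 1 and 23 without LMP1 2.

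The transcription and splicing factors that keep the epithelial state were lower in LMP1 as a group. Of 18 tested, 10 fell (55.6%, against 9.06% of all genes tested), 0 rose, and the median difference was -2.21. Grhl2, a master regulator of epithelial genes (chr15:37233036-37363569 on GRCm38), was read at 116, 60.5 and 107 CPM in Ctr 1, 2 and 3 and 6.86 and 11 CPM in LMP1 1 and 2. Both LMP1 libraries lay far below all 3 Ctr libraries, a 10.6-fold drop with a difference of -3.40 (SE 0.35) and an adjusted p of 0.00286. Its relative Grhl3, a factor of barrier formation, fell 10.9-fold, from 12.2, 9.28 and 14.9 to 1.06 and 1.17 CPM.

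Esrp1 and Esrp2, which set epithelial splice forms, fell 5.404-fold and 3.26-fold. Esrp1 was read at 507, 273 and 395 CPM in Ctr 1, 2 and 3 and 52.9 and 92.01 CPM in LMP1 1 and 2, and of the Ctr libraries Ctr 2 was the lowest. The largest drops in the group were those of Trp63, the p63 gene of basal cells, at 152, 57.7 and 333 against 2.48 and 1.89 CPM (82.7-fold lower), and of Tfap2c, an AP-2 factor, at 18.9, 9.49 and 56.2 against 0.317 and 0.261 CPM (97.7-fold lower). The call on Tfap2c was lost under the GC correction (adjusted p = 0.0521). Ovol1 and Ovol2, repressors of EMT factors, fell 3.97-fold and 20.96-fold, and Foxa1, a pioneer factor, fell 8.81-fold. The other 8 members did not pass. Among them Sox2, a progenitor factor, was at 36.97, 54.9 and 61.05 against 70.1 and 60.3 CPM, Klf5 at 114, 46.3 and 76.5 against 58.9 and 70.4 CPM, Tfap2a at 56.6, 27.9 and 49 against 40.2 and 46.8 CPM, Ehf at 262, 117 and 104 against 105 and 99.3 CPM and Grhl1 at 20.6, 28.5 and 16.4 against 9.29 and 17.4 CPM. Klf4 was at 82.9, 36.9 and 43.8 against 127 and 58.7 CPM, and the epithelial ETS factors Elf3 and Elf5 were at 285, 138 and 62.8 against 44.9 and 49.8 CPM and at 0.782, 1.18 and 0.0688 against 0.211 and 0 CPM. Thus the loss took in part of the network, with Sox2, Klf4 and Klf5 at levels that overlapped between the groups.

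**Figure D1:**
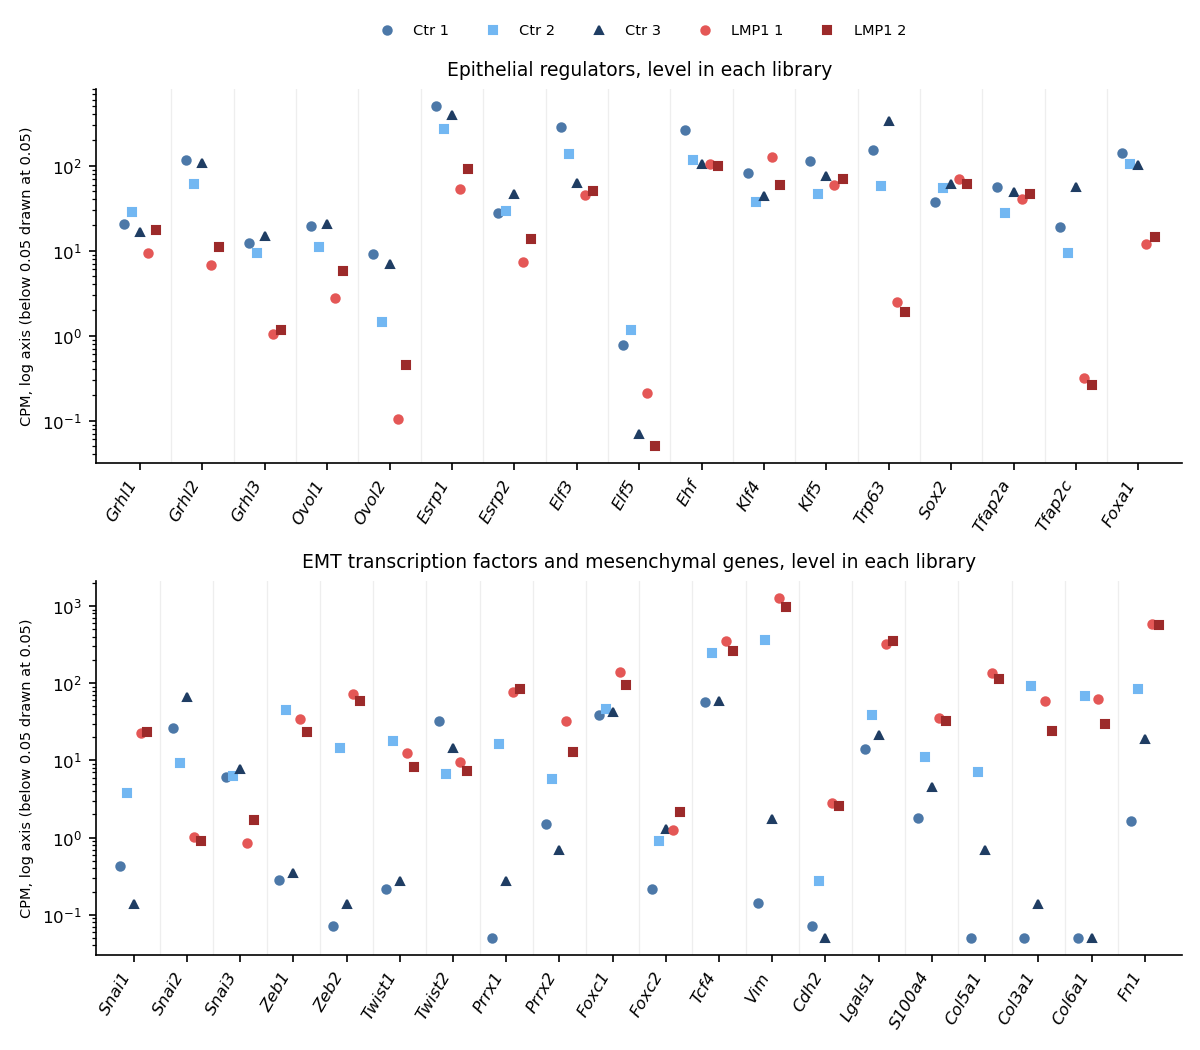
Levels of epithelial regulators (upper panel) and of EMT factors and mesenchymal genes (lower panel) in the 3 Ctr (blue) and 2 LMP1 (red) libraries, in CPM on a log axis, 1 point per library, with values below 0.05 drawn at 0.05. For Grhl2, Esrp1 and Trp63 both LMP1 points lie below all Ctr points, and for Zeb1, Twist1 and Col3a1 the Ctr 2 point lies near or above the LMP1 points.

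Promoters of these genes are shown because SNAIL and ZEB factors repress epithelial genes through the E-box CACCTG. The sequences come from RefSeq's annotation on GRCm38.p6 and run from 250 bases before to 50 after the gene start, 5' to 3' on the gene's strand. E-boxes on either strand (CACCTG or CAGGTG) are in capitals. The 4 shown, a called regulator and 3 called junction genes, were chosen because they hold 2 or more E-boxes.
Grhl3, chr4:135573583-135573882, minus strand: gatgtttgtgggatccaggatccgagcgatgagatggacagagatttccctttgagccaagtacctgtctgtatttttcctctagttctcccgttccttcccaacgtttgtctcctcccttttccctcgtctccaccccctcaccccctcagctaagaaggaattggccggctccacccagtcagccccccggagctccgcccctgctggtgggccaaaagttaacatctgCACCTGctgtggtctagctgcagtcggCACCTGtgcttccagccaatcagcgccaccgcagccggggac
Crb3, chr17:57061951-57062250, plus strand: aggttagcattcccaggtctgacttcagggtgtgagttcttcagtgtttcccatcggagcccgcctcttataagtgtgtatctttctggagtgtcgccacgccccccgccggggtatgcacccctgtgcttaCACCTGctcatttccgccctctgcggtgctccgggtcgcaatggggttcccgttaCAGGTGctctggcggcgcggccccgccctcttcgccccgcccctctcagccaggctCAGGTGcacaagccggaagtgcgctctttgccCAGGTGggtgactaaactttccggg
Epcam, chr17:87635729-87636028, plus strand: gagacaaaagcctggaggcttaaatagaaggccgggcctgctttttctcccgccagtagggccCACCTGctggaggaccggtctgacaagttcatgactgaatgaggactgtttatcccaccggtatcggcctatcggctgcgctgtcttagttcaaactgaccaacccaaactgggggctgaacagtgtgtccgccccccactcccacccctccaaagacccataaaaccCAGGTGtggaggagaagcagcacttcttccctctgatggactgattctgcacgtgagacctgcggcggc
Spint2, chr7:29281928-29282227, minus strand: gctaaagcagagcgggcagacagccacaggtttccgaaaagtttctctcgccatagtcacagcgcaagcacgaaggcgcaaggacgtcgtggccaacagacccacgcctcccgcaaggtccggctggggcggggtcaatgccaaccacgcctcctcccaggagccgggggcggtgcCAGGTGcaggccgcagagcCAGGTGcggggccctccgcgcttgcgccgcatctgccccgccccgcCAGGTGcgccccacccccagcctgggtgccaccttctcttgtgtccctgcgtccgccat
The E-box occurred in 6640 of all 32851 promoters in the table (20.2%), in 18.6% of the 12957 promoters of genes tested, in 24.4% of 1161 promoters of genes that fell and in 16.6% of 1008 promoters of genes that rose. Promoters were matched for 9 of the 18 regulators and 21 of the 34 junction genes listed, whether tested or not. Grhl2, Esrp1 and Cdh1 were not among them. The E-box occurred in 5 of 12 promoters of these regulators and in 18 of 28 of these junction genes, where several start sites of 1 gene can give overlapping windows that count separately. Crb3 held 4 and Spint2 held 3, and Grhl3 and Epcam held 2 each. The GRHL motif AACCGGTT, its own reverse complement, occurred in 48 of all promoters (0.146%) and in 0 of the promoters of both lists. A match is a run of letters, not a measured site of binding.

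Genes of cell junctions and polarity followed the same direction. Of 32 tested, 16 fell, 0 rose, and the median difference was -1.54. Cdh1, which encodes E-cadherin (chr8:106603351-106670246), fell 2.83-fold, from 777, 485 and 629 to 157 and 289.7 CPM (difference -1.50, SE 0.31, adjusted p = 0.0165). Its transcript was thus lowered and not lost. Cdh3, P-cadherin of basal cells, fell 49.9-fold at 143, 29.5 and 125 against 1.11 and 2.87 CPM, with Ctr 2 well below the other Ctr libraries.

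Epcam, a surface adhesion molecule of epithelia, fell 5.33-fold at 1116, 462 and 666 against 103 and 177 CPM. The claudins of tight junctions split: Cldn4 and Cldn7 fell 12.1-fold and 8.41-fold, while Cldn3 stayed at 107, 79.4 and 46.2 against 82.6 and 121 CPM with overlapping groups. Rab25, a GTPase of apical recycling, fell 10.3-fold at 132, 89.2 and 152 against 9.24 and 14.8 CPM. Mal2, a transport protein of the apical membrane, fell 15.2-fold, the polarity gene Crb3 7.94-fold and the protease inhibitor Spint2 1.8-fold.

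Cytoplasmic partners of the junctions did not pass. Tjp1, the scaffold ZO-1, was at 396, 301 and 229.5 against 357 and 344 CPM, Ctnnb1, which encodes beta-catenin, at 784, 1081 and 876 against 731 and 751 CPM, and Ctnna1, alpha-catenin, at 487, 452 and 440.5 against 367 and 387 CPM. Ctnnd1, p120-catenin, was at 401, 348 and 335 against 262 and 265 CPM (adjusted p = 0.0502).

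Desmosomes, the spot junctions that tie keratin filaments together, were mostly lower. Of 10 tested members 8 fell, 0 rose, and the median difference was -2.57. Dsg3, a desmoglein of stratified epithelium, was read at 47.1, 34.9 and 102 CPM in Ctr 1, 2 and 3 and 0.211 and 1.04 CPM in LMP1 1 and 2, which is 98.1-fold lower in LMP1. Dsc2 fell 9.74-fold, and the plakophilins Pkp1 and Pkp3 fell 7.68-fold and 7.27-fold. Dsp, desmoplakin, fell 3.57-fold, Jup, plakoglobin, 2.91-fold, and Perp, a desmosomal p53 target, 4.87-fold. Pkp2, the plakophilin of simple epithelia and heart, was at 58.4, 44.5 and 42.3 against 40.1 and 40.1 CPM (adjusted p = 0.71).

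The anchor to the basement membrane fell as well, with 7 of 11 members lower, 0 higher and a median difference of -3.05. Among the chains of the epithelial laminin, Lama3 fell 29-fold and Lamb3 25.3-fold. Lamb3 was read at 179.9, 79.7 and 101 CPM in Ctr 1, 2 and 3 and 3.54 and 5.99 CPM in LMP1 1 and 2, with a difference of -4.66 (SE 0.47) and an adjusted p of 0.00245. Their receptors fell less steeply, with Itga6 3.842-fold, Itgb4 8.26-fold and Itga3 3.33-fold lower. Col17a1, a transmembrane collagen of hemidesmosomes, was at 24.9, 27.8 and 159 against 0.897 and 1.63 CPM, where Ctr 3 lay far above Ctr 1 and 2 and the test did not pass (adjusted p = 0.0766). Fermt1, an integrin activator, was called lower, but its Ctr values of 974, 23.3 and 57.95 CPM rest on Ctr 1, and the call was lost under the GC correction (adjusted p = 0.0687). Plec and Cd151 did not pass, at 259, 292 and 437 against 354 and 497 CPM and at 89.6, 86.6 and 94.01 against 118 and 123 CPM.

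Keratins, the filament proteins of epithelia, were mostly lower, and the 7 not called included a pair of simple-epithelium keratins. Of 17 tested 10 fell and 0 rose, with a median difference of -4.76. The basal keratin Krt5 was read at 658, 424 and 1803 CPM in Ctr 1, 2 and 3 and 4.33 and 12.2 CPM in LMP1 1 and 2, a difference of -6.87 (SE 1.84) with an adjusted p of 0.0373. Krt14, its partner, fell 26.98-fold at 85.5, 89.2 and 503 against 4.699 and 12.1 CPM. The stress keratins Krt17, Krt6a and Krt6b fell 81.6-fold, 55.8-fold and 79.3-fold, and the mucosal keratin Krt4 fell 18.5-fold. Krt13, another mucosal keratin, had 763 counts over the Ctr libraries and 3 over the LMP1 libraries. Of the keratins of simple epithelia, Krt8 was at 342, 459 and 318 against 281 and 400.4 CPM (adjusted p = 0.933) and Krt18 at 501, 396 and 351 against 294 and 391 CPM (adjusted p = 0.732), while Krt19 fell 9.13-fold. Related keratin genes are similar in sequence, so counting could have shared reads among them.

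Genes of squamous differentiation and the skin barrier fell in 10 of 16 tested, with 0 higher and a median of -3.85, or -3.63 with the 1 gene at 0 counts in LMP1 set at its bound. Abca12, a lipid transporter of the barrier, was at 53.9, 36.3 and 83.5 CPM in the Ctr libraries and had 1 count in each LMP1 library (difference -9.76, SE 1.20, adjusted p = 0.00411). Cers3, which makes barrier ceramides, fell 36.2-fold at 101, 37.97 and 65.9 against 1.16 and 2.605 CPM. Ivl, the cornified-envelope protein involucrin, fell 28.5-fold, though its call was lost under the GC correction (adjusted p = 0.0528) and without Ctr 2 (adjusted p = 0.0524). Evpl and Tgm1, envoplakin and a cross-linking enzyme, fell 5.55-fold and 6.26-fold. Ppl, periplakin, was at 91.1, 148 and 140.5 against 130 and 162 CPM and did not pass.

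Markers of epithelium and of basal epithelium were also summed in each library. All of them are members of the lists above, so the sums are not a separate check. Markers of epithelium (Epcam, Cdh1, Krt8, Krt18, Krt19, Cldn7 and Esrp1) summed to 3914, 2717 and 2653 CPM in Ctr 1, 2 and 3 and to 931 and 1428 CPM in LMP1 1 and 2, and all 7 were read in every library. Markers of basal epithelium summed to 1470, 1231 and 3385 CPM in Ctr and to 124 and 176 CPM in LMP1. Krt8 and Krt18 thus stayed within the range of the Ctr libraries or near it while basal markers were low in LMP1. In bulk RNA, fewer cells of a type and less RNA per cell cannot be told apart.

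**Figure D2:**
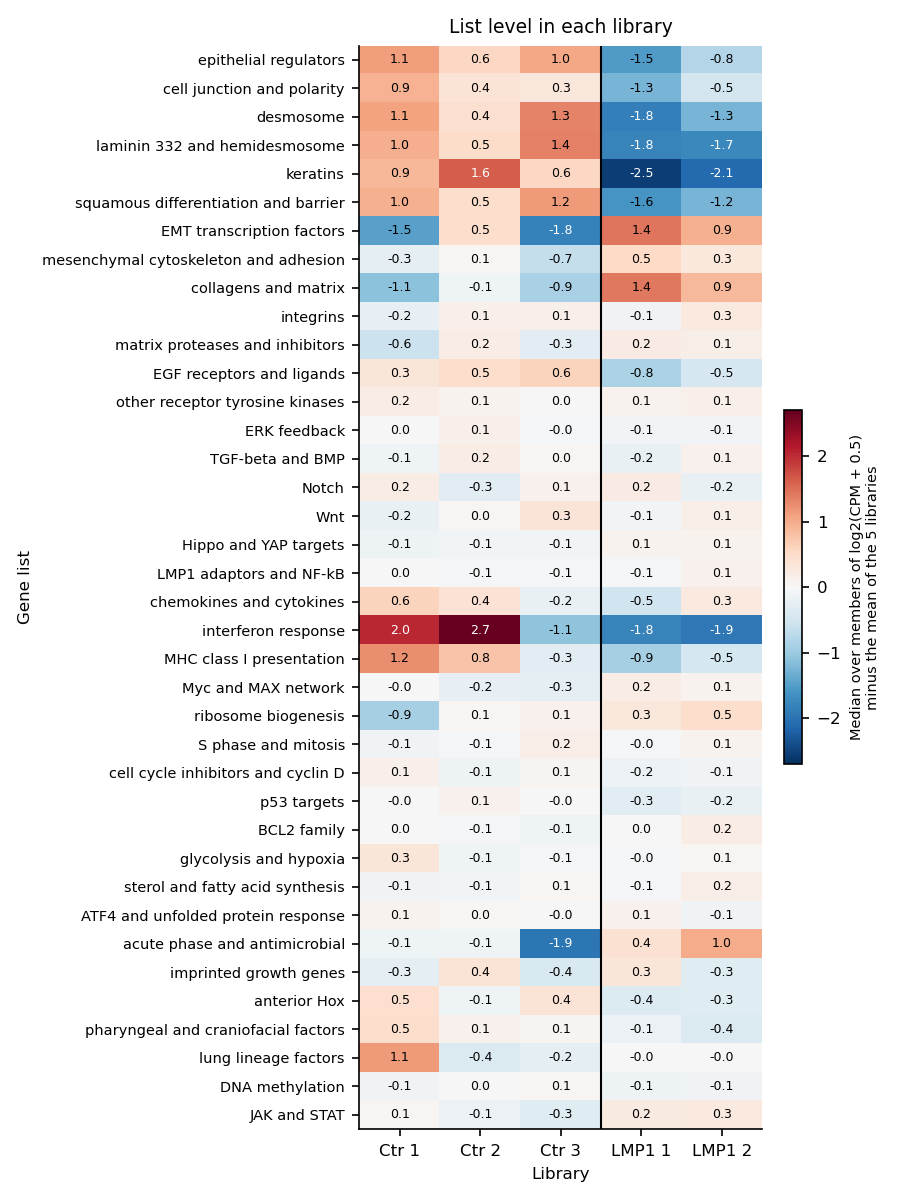
Level of each gene list (rows) in each library (columns): the median over tested members of log2(CPM + 0.5) minus the mean of the 5 libraries, with Ctr left and LMP1 right of the line. The 6 epithelial lists at the top are above 0 in every Ctr library and below 0 in both LMP1 libraries, the EMT list is at 0.5 in Ctr 2 against -1.5 and -1.8 in Ctr 1 and 3, and the interferon list is at -1.1 in Ctr 3 against 2.0 and 2.7 in Ctr 1 and 2.

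The EMT transcription factors moved in both directions, and their calls depended on Ctr 2. Of 12 tested, 2 rose and 2 fell with all libraries, 8 rose and 2 fell when Ctr 2 was left out, and 1 rose and 1 fell without Ctr 1 or without Ctr 3. Snai1, which encodes SNAIL (chr2:167538195-167542814), was read at 0.427, 3.74 and 0.138 CPM in Ctr 1, 2 and 3 and 22.3 and 23.6 CPM in LMP1 1 and 2, a 16.02-fold rise with a difference of 3.99 (SE 1.16) and an adjusted p of 0.0475. Ctr 2 was the highest Ctr library and still well below LMP1, the adjusted p was 0.01 without it, and the call was lost under the GC correction (adjusted p = 0.107).

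Snai2, which encodes SLUG, a factor also used by basal epithelial cells, went the other way at 26.6, 9.15 and 66.3 against 1.003 and 0.912 CPM, 35.5-fold lower (adjusted p = 0.0415, and 0.0736 under the GC correction). Snai3, another family member, fell 5.29-fold at 6.11, 6.24 and 7.78 against 0.845 and 1.69 CPM. Foxc1, a forkhead factor, was read at 39.3, 46.6 and 42.2 CPM in Ctr 1, 2 and 3 and 141 and 93.8 CPM in LMP1 1 and 2, a rise of 2.75-fold with tight Ctr libraries (difference 1.46, SE 0.19, adjusted p = 0.00464).

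Zeb1 and Twist1 were as high in Ctr 2 as in LMP1. Zeb1 was read at 0.284, 44.5 and 0.344 CPM in Ctr 1, 2 and 3 and 34.6 and 23.1 CPM in LMP1 1 and 2, with an adjusted p of 0.747 with all libraries and 0.0318 without Ctr 2. Twist1 was at 0.213, 17.7 and 0.275 against 12.6 and 8.27 CPM, with adjusted p values of 0.763 and 0.0253. In Ctr 1 and Ctr 3 both were near the floor of 3 counts. Zeb2, at 0.0711, 14.6 and 0.138 against 72.1 and 59.2 CPM, and Prrx1, a mesenchymal homeobox gene, at 0, 16.2 and 0.275 against 77.9 and 84.98 CPM, were intermediate in Ctr 2. Both passed without Ctr 2 (adjusted p = 0.00186 and 0.0221) and not with it (0.123 and 0.18). Tcf4 was at 57.5, 249 and 58.4 against 353 and 265 CPM and Prrx2 at 1.49, 5.68 and 0.688 against 31.99 and 13.02 CPM, and they too passed only in the fit without Ctr 2. Twist2 and Foxc2 passed in neither, at 32.1, 6.65 and 14.6 against 9.503 and 7.23 CPM and at 0.213, 0.901 and 1.31 against 1.27 and 2.15 CPM. Gsc was too low to test, at 0.0711, 0 and 0 against 0 and 0.13 CPM.

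The mesenchymal cytoskeleton and adhesion genes gave 2 higher and 1 lower of 17 tested, shares of 11.8% and 5.88% that lie near the 7.36% and 9.06% of all genes tested. The counts were 6 higher and 1 lower without Ctr 2, and 1 higher and 1 lower without Ctr 3. Vim, the filament vimentin (chr2:13573927-13582826), was read at 0.142, 358 and 1.72 CPM in Ctr 1, 2 and 3 and 1288 and 979 CPM in LMP1 1 and 2. Its groups did not overlap, while Ctr 2 lay far above Ctr 1 and 3, and the adjusted p was 0.29, against 0.0101 without Ctr 2. Lgals1, the lectin galectin-1, rose 13.5-fold at 14.2, 39.1 and 21.2 against 317 and 353 CPM (difference 3.75, SE 0.36, adjusted p = 0.00184), and S100a4, a calcium-binding protein of motile cells, rose 5.79-fold at 1.78, 11.2 and 4.54 against 35 and 32.4 CPM. Cdh2, N-cadherin, was low throughout at 0.0711, 0.277 and 0 against 2.798 and 2.54 CPM and did not pass with or without Ctr 2 (adjusted p = 0.0614 and 0.0587). Cnn2, a calponin, fell 6.39-fold. Cd44, a hyaluronan receptor, was at 1129, 1255 and 1214 against 514 and 757 CPM and did not pass. Axl, a receptor kinase linked to EMT, was at 294, 273 and 352 against 338 and 385 CPM with overlapping groups.

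Collagens and other matrix genes gave 7 higher (17.9%, against 7.36%) and 2 lower (5.13%, against 9.06%) of 39 tested. The higher calls hang on the Ctr libraries: there were 4 without Ctr 1, 16 without Ctr 2 and 1 without Ctr 3, each with 2 lower, and 1 higher and 3 lower under the GC correction. Col5a1, a fibrillar collagen chain, was read at 0, 7.07 and 0.688 CPM in Ctr 1, 2 and 3 and 134 and 114 CPM in LMP1 1 and 2, 48.1-fold higher in LMP1 (adjusted p = 0.0277, and 0.0522 under the GC correction). Fn1, fibronectin, rose 16.4-fold at 1.64, 85.2 and 18.8 against 589.7 and 564 CPM (adjusted p = 0.0471, and 0.0748 under the GC correction). Aebp1, a collagen-binding protein, rose 17.1-fold at 2.35, 13.1 and 2.68 against 112 and 94.7 CPM and held under the correction (adjusted p = 0.0215). Another part of the list was at least as high in Ctr 2 as in LMP1. Col3a1 was at 0, 91.6 and 0.138 against 58.02 and 23.8 CPM, Col6a1 at 0, 68.2 and 0 against 61.6 and 29.9 CPM and Fbn1, fibrillin, at 0.355, 29.2 and 0.344 against 17.7 and 11.3 CPM, and these passed without Ctr 2 and not with it. Mgp, an inhibitor of calcification, was at 0.0711, 29.9 and 0.344 against 261 and 128 CPM, with adjusted p values of 0.0901 with and 0.000983 without Ctr 2. Col8a1 and Fbln1 fell 33.4-fold and 3.15-fold.

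The 10 fibroblast markers summed to 2.27, 106.8 and 0.757 CPM in Ctr 1, 2 and 3 and to 82.4 and 41.5 CPM in LMP1 1 and 2. Of 7 tested 1 rose, Col6a3, at 0, 0.139 and 0.0688 against 2.27 and 1.89 CPM (adjusted p = 0.0328, and 0.0554 under the GC correction), 4 rose without Ctr 2, and 6 of the 7 had a positive difference. Col3a1 made up most of the sum in Ctr 2 and in LMP1. Dcn, the matrix protein decorin, was at 0, 9.77 and 0 against 10.03 and 8.79 CPM, and the receptor gene Pdgfrb at 0, 1.04 and 0 against 7.55 and 4.49 CPM. Thus Col3a1 and Dcn were high in Ctr 2 and both LMP1 libraries and at or near 0 in Ctr 1 and 3, while Col6a3 and Pdgfrb were highest in LMP1. Col1a1 was at 0.498, 0.901 and 0 against 1.58 and 0.847 CPM, Pdgfra at 0.64, 1.04 and 0.138 against 1.43 and 1.04 CPM and Fap at 1.14, 1.04 and 0.138 against 0.581 and 0.326 CPM. Col1a2, Lum and Thy1 were under 1 CPM in every library, and Thy1 had 0 counts in both LMP1 libraries. Of these markers, Col1a1, Col1a2, Col3a1, Col6a3, Dcn and Lum also belong to the matrix list and Thy1 to the mesenchymal list. The marker sum is thus not independent of those lists. The part of these markers in the EMT, mesenchymal and matrix results was not tested. Markers of endothelium summed to at most 1.21 CPM and those of red blood cells to at most 1.39 CPM. Immune markers summed to 40.5, 12.1 and 12.3 CPM in Ctr and to 7.55 and 11.7 CPM in LMP1, and Ptprc, the marker of all white blood cells, was at most 0.208 CPM. Smooth muscle and pericyte markers summed to 6.24 CPM in Ctr 2, 4.38 and 4.04 CPM in LMP1 and under 1 CPM in the other Ctr libraries. Neural crest and Schwann markers were at 114, 30.6 and 87.0 CPM in Ctr and 4.49 and 5.41 CPM in LMP1, of which Ngfr, also a gene of basal epithelium, made up most at 111, 27.02 and 84.2 against 3.01 and 3.45 CPM. The part of other cells in the results was likewise not tested.

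Proteases that cut the matrix and their inhibitors gave 3 higher and 3 lower of 20 tested (15% each, against 7.36% and 9.06% of all genes), and 1 higher and 3 lower without Ctr 3. Mmp2, a gelatinase, rose 12.9-fold at 0.284, 3.46 and 0.413 against 23.97 and 11.8 CPM (adjusted p = 0.0302, and 0.0585 under the GC correction). Timp1, its family's inhibitor, rose 6.99-fold at 2.204, 9.49 and 3.23 against 27.9 and 41.6 CPM. Plau, the urokinase, fell 10.1-fold at 142, 111 and 160.2 against 10.98 and 16.1 CPM. Serpinb5, the epithelial serpin maspin, fell 44.2-fold, and the sheddase Adam8 fell 12.7-fold. Of 11 integrins tested 1 rose and 3 fell, with 2 lower without Ctr 1 or 2: Itga7 rose 3.77-fold, and Itgb6, Itga2 and Itgav fell 16.4-fold, 9.04-fold and 2.29-fold. Itgb1, the shared beta chain, was at 586, 845 and 754 against 641 and 625 CPM and did not pass. Itgb6 pairs with Itgav in the receptor that activates latent TGF-beta, and both its chains fell.

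**Figure D3:**
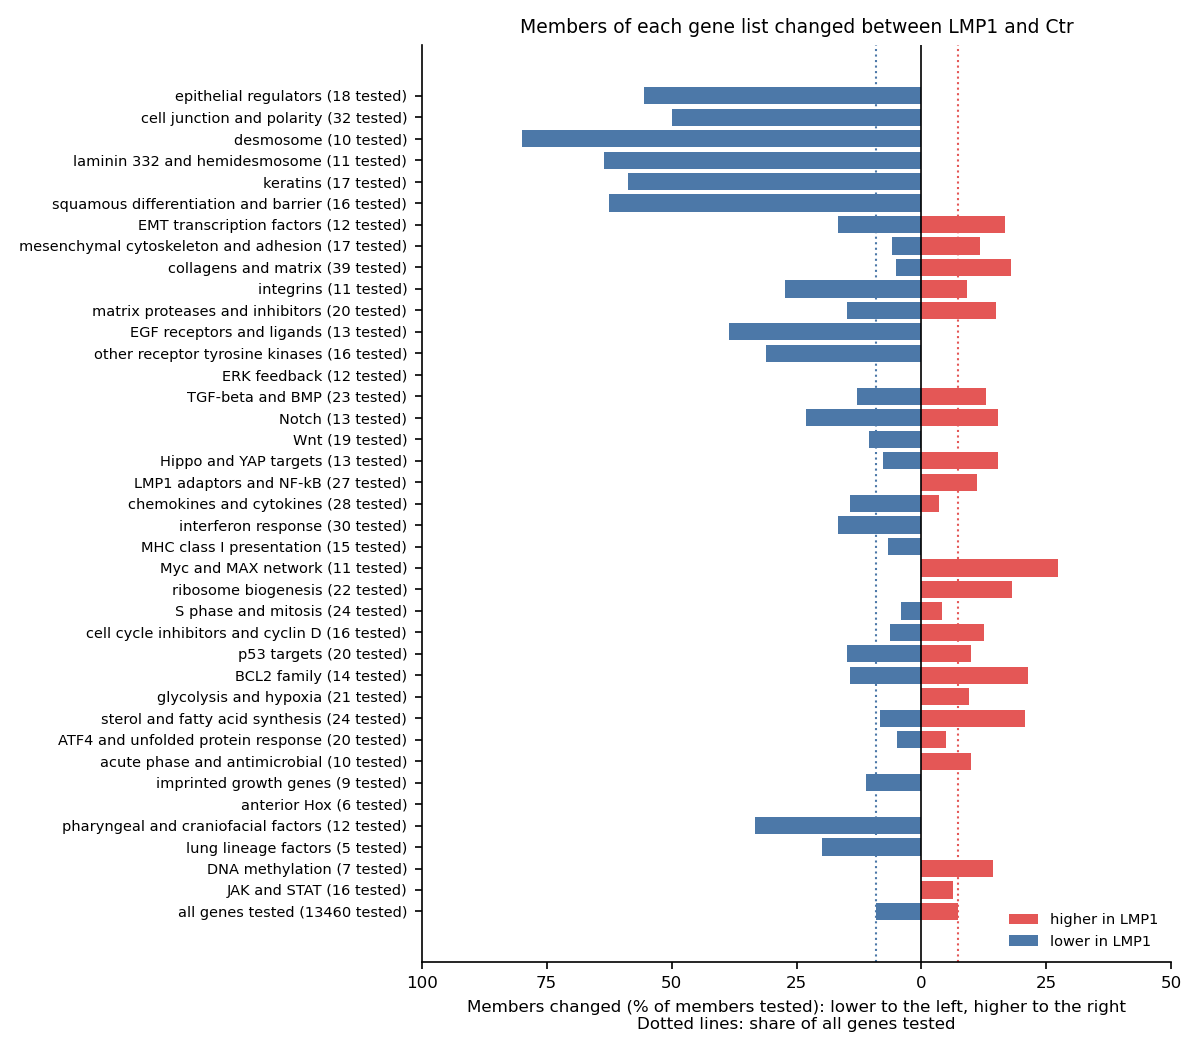
Share of tested members of each gene list that rose (red, right) or fell (blue, left) in LMP1 against Ctr, in percent, with all genes tested in the bottom row and as dotted lines. Desmosome, squamous, laminin, keratin, regulator and junction lists reach 50% or more lower with 0 higher, against 9.06% lower among all genes tested.

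Receptors and ligands that feed epithelial growth fell in part. Of 13 EGF family members tested 5 fell and 0 rose, with 3 lower without Ctr 3 and a median of -1.15. Erbb3, the receptor HER3, was read at 132, 67.8 and 85.2 CPM in Ctr 1, 2 and 3 and 13.7 and 20.8 CPM in LMP1 1 and 2, 5.52-fold lower (adjusted p = 0.00805). The ligands Tgfa, Ereg, Btc and Nrg1 fell 4.57-fold, 4.95-fold, 10.02-fold and 21.1-fold, and the calls on Ereg and Btc were lost both without Ctr 2 and under the GC correction. Egfr itself was at 190.3, 84.5 and 118 against 67 and 71.8 CPM and did not pass (adjusted p = 0.0815). Of 16 other receptor tyrosine kinases 5 fell and 0 rose, with 2 higher without Ctr 2: Fgfr3 41.2-fold, Mst1r 33.3-fold, Ephb2 5.45-fold, Met 3.296-fold and Epha2 2.02-fold. Met, the receptor of hepatocyte growth factor, was at 173, 208 and 203 against 48.99 and 69.1 CPM. Feedback genes of the ERK pathway, which read out its activity, gave 0 calls of 12 in edgeR, with 2 at an unadjusted p under 0.05. DESeq2 gave 2 calls, both lower. In edgeR 1 gene was called lower without Ctr 1 and 1 was called higher without Ctr 2. Dusp6 was at 434, 313 and 479.8 against 202 and 216 CPM (adjusted p = 0.0881).

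The adaptors and transcription factors through which LMP1 signals were mostly not called. Of 27 tested 3 rose (11.1%, against 7.36% of all genes tested), 0 fell, and the median difference was 0.03, while 1 fell without Ctr 1. DESeq2 called 4 higher and 3 lower. Called or not, 5 members were higher and 7 lower in LMP1 without overlap, Tnfaip3 among the lower. Rela, the NF-kB subunit p65, was read at 66.97, 64.8 and 63.5 CPM in Ctr 1, 2 and 3 and 119 and 127 CPM in LMP1 1 and 2, 1.89-fold higher (adjusted p = 0.0188). Bcl3, a nuclear partner of NF-kB p50, rose 2.65-fold at 34.2, 27.9 and 18.9 against 70.2 and 72.9 CPM, and Nfkbib rose 1.86-fold. None of the 3 passed under the GC correction, with adjusted p values from 0.109 to 0.249. Known NF-kB targets that act as feedback did not pass: Nfkbia was at 277, 66.4 and 129 against 130.2 and 146 CPM, Tnfaip3 at 96.2, 70.4 and 69.9 against 31.5 and 36.3 CPM, Birc3 at 56.2, 36.8 and 19 against 23.2 and 28.2 CPM and Traf1 at 1.07, 2.01 and 1.24 against 1.27 and 2.02 CPM. Traf2, Traf3 and Tradd, which bind LMP1, were at 33.3, 37.7 and 37.03 against 35.5 and 36.5 CPM, at 95.7, 108 and 127 against 110 and 122 CPM and at 17.1, 18.3 and 23.9 against 20.5 and 21.9 CPM.

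Of 16 JAK and STAT genes 1 rose (6.25%), or 2 without Ctr 1, and it was Socs3, the feedback inhibitor of STAT3, which was read at 62.99, 59.4 and 35.8 CPM in Ctr 1, 2 and 3 and 210.4 and 158 CPM in LMP1 1 and 2 (3.49-fold, adjusted p = 0.0151, and 0.0497 under the GC correction). Stat3 was at 199.6, 163 and 149 against 228 and 226 CPM, above the Ctr range in both LMP1 libraries without passing (adjusted p = 0.101). Among 10 acute-phase genes tested, Lcn2, the iron-binding lipocalin, was at 208, 309.9 and 40.4 against 1501 and 1888 CPM and Saa3, a serum amyloid, at 0.355, 64.2 and 0.895 against 249 and 316 CPM. The groups of both genes did not overlap and neither passed (adjusted p = 0.0657 and 0.145). The member that passed, Saa2, was near the floor in Ctr, at 0, 0.139 and 0.0688 against 1.37 and 1.95 CPM, and 0 members rose without Ctr 1 or 3.

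Chemokines and cytokines gave 1 higher and 4 lower of 28 tested (3.57% and 14.3%), and 0 higher and 2 lower without Ctr 1 or without Ctr 3. Csf1, the growth factor of macrophages, rose 2.27-fold at 41.3, 51.3 and 30.3 against 84.2 and 101 CPM, a call lost under the GC correction (adjusted p = 0.117). Cxcl10, a T-cell chemokine induced by interferon, fell 30.3-fold at 57.9, 46.01 and 21.8 against 1.27 and 1.498 CPM. Il1a fell 50.8-fold with its Ctr values at 90.9, 9.7 and 7.85 CPM, so that Ctr 1 carried most of them. Icam1, an adhesion ligand for leukocytes, fell 5.78-fold at 206, 39.8 and 126 against 14.2 and 28.8 CPM, and Cxcl16 fell 2.72-fold. Cxcl5 and Ccl2 overlapped between the groups.

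Interferon-response genes were lower in sum in LMP1 than in Ctr 1 and 2, and Ctr 3 was nearly as low as LMP1. The 30 members summed to 1775, 2089 and 245 CPM in Ctr 1, 2 and 3 and to 219 and 227 CPM in LMP1 1 and 2. Ctr 3 was the lowest Ctr library for 30 of 30 members, and for 10 of them it was no higher than the higher LMP1 library. The median difference was -4.57, or -5.12 without Ctr 3. In edgeR 5 fell and 0 rose (16.7% lower, against 9.06%), with 22 of 30 at an unadjusted p under 0.05, and DESeq2 called 20 lower. The edgeR count was 2 without Ctr 1, 3 without Ctr 2 and 13 without Ctr 3. Oas2, a sensor of double-stranded RNA, was read at 96.2, 114 and 0.344 CPM in Ctr 1, 2 and 3 and 0.158 and 0.13 CPM in LMP1 1 and 2 and did not pass (adjusted p = 0.103). Those that passed were lower in LMP1 than in Ctr 3 too. Usp18, which damps interferon signalling, was at 69.8, 61.9 and 6.54 against 0.0528 and 0.326 CPM (adjusted p = 0.028), Phf11d at 85.2, 87.2 and 5.37 against 0.0528 and 0.326 CPM and Ddx58, the RNA sensor RIG-I, at 149.5, 142 and 46.2 against 12.99 and 14.5 CPM. Oasl1 fell 38.3-fold and Ifit1 197-fold, while Irf1 was at 109, 50.2 and 36.7 against 65.99 and 71.04 CPM with overlapping groups.

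Antigen-presentation genes of MHC class I gave 1 lower of 15 tested (6.67%, against 9.06% of all genes), 2 lower without Ctr 3 and 7 lower in DESeq2, with a median of -1.31. B2m, the light chain of MHC class I, was at 502, 439 and 160.2 against 102 and 115 CPM and H2-K1, a heavy chain, at 572, 522 and 316 against 186 and 277 CPM, and neither passed (adjusted p = 0.159 and 0.192). Psmb9, a subunit of the immunoproteasome, fell 10.2-fold at 7.89, 6.79 and 3.03 against 0.317 and 0.847 CPM.

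Beside Myc, its partner Max and its antagonist Mnt rose, 3 of 11 members of the network against 7.36% of all genes. Max was at 55.7, 64.4 and 63.4 against 98.6 and 112 CPM (1.73-fold) and Mnt at 31.2, 21.5 and 22.9 against 67.2 and 62.1 CPM (2.57-fold), and Max was lost under the GC correction (adjusted p = 0.0575) and without Ctr 2 (adjusted p = 0.0649). Genes of ribosome biogenesis, which Myc is known to drive, gave 4 higher and 0 lower of 22 tested with a median of 0.57. Fbl, fibrillarin, rose 2.08-fold at 102, 85.4 and 126 against 213 and 219 CPM, and Pes1, Polr1a and Rrp9 rose 2.04-fold, 1.84-fold and 2.98-fold. Ctr 1 was the lowest Ctr library for 20 of the 22, and the list gave 0 calls without Ctr 1 (4 at an unadjusted p under 0.05), 1 without Ctr 2 and 1 under the GC correction.

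Proliferation genes were largely level between the groups. Of 24 genes of S phase and mitosis 1 rose and 1 fell (4.17% each), with 0 higher without Ctr 2 or 3: Plk1, a mitotic kinase, rose 1.87-fold and Bub1, a checkpoint kinase, fell 1.91-fold, and both lost their calls under the GC correction. Mki67, the Ki-67 antigen, was at 688, 433 and 597 against 652 and 615 CPM. Ccnd2, a D-type cyclin, was read at 414, 491 and 504 CPM in Ctr 1, 2 and 3 and 116 and 90.3 CPM in LMP1 1 and 2, 4.55-fold lower (difference -2.19, SE 0.36, adjusted p = 0.00893), while Ccnd1 was at 445, 791 and 631 against 519.5 and 599 CPM with overlapping groups. Cdk4 and the inhibitor Cdkn2c rose 1.73-fold and 1.997-fold, both lost without any 1 of the Ctr libraries and under the GC correction.

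Of 20 p53 targets 2 rose and 3 fell, 10% and 15%, which is near the 7.36% and 9.06% of all genes tested. Bax and Bbc3, which promote apoptosis, rose 2.22-fold and 4.41-fold. Pmaip1, of the same pathway, fell 6.23-fold, and Perp and Ccng1 were also called lower. All of these except Perp lost their calls under the GC correction. Of the 14 BCL2 family genes tested, Bcl2, which protects from apoptosis, fell 2.18-fold at 17.8, 23.2 and 30.97 against 12.1 and 9.898 CPM, with an adjusted p of 0.0277 that became 0.0511 under that correction. Mcl1 was at 348, 254 and 269.9 against 279.6 and 284 CPM.

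Metabolic lists changed in a few members each. Pkm, pyruvate kinase of growing tissue, rose 2.37-fold, from 1768, 1582 and 2212 to 3877 and 4925 CPM, and kept its call under the GC correction (adjusted p = 0.0209), while Ldha was at 1274, 1621 and 2054 against 1570 and 1887 CPM. Atf4, the factor of the integrated stress response, rose 2.48-fold at 257, 177 and 189 against 536 and 495 CPM (adjusted p = 0.00505), and Slc7a11, its cystine transporter target, fell 5.75-fold at 378, 253 and 793 against 82.6 and 82.6 CPM, a call lost under the GC correction (adjusted p = 0.0633). Of 24 genes of sterol and fatty acid synthesis 5 rose and 2 fell (20.8% and 8.33%), with 3 higher without Ctr 1, 2 without Ctr 2, and 0 higher and 1 lower under the GC correction. Fasn, fatty acid synthase, was at 452, 722 and 919.9 against 1501 and 1712 CPM (2.301-fold higher). Dnmt1, the maintenance DNA methyltransferase, rose 1.66-fold at 291, 270 and 339 against 503 and 493 CPM, with an adjusted p of 0.0289 that became 0.109 under the correction.

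Developmental factors of the pharynx fell in 4 of 12 tested, with 0 higher and a median of -1.67. Pax9, a factor of pharyngeal endoderm, was read at 81.3, 29.4 and 72.3 CPM in Ctr 1, 2 and 3 and 3.33 and 3.13 CPM in LMP1 1 and 2 (18.9-fold lower, adjusted p = 0.00327). Pitx1, an oral and hindlimb homeobox gene, fell 22.6-fold at 133, 36.2 and 67.03 against 2.48 and 4.49 CPM, and Tbx1, the pharyngeal arch gene, fell 4.46-fold at 27.5, 13.7 and 29.04 against 5.54 and 4.95 CPM. Foxe1 had 1 count over both LMP1 libraries. Sox9 lay the other way without passing, at 12.5, 37.4 and 15 against 102 and 71.5 CPM. Plagl1, an imprinted growth regulator, fell 13.8-fold, and Hopx, a homeodomain protein of stem cells and lung, fell 11.8-fold.

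In developmental signalling, of 13 Notch genes 2 rose and 3 fell (15.4% and 23.1%), and 1 rose and 2 fell without Ctr 3. The receptor Notch3 fell 12.2-fold at 183, 54.5 and 65.2 against 8.39 and 8.14 CPM while Notch2 rose 1.96-fold at 60.5, 109.5 and 67.2 against 166 and 144 CPM, and the ligands Dll1 and Jag1 fell 28.2-fold and 2.31-fold. Mfng, a glycosyltransferase that tunes Notch, rose 17.3-fold at 0.284, 2.49 and 0.344 against 16.9 and 19.01 CPM. Of 23 TGF-beta and BMP genes 3 rose and 3 fell (13% each), with 1 and 2 without Ctr 1 and 1 each without Ctr 3. Bmp7 fell 19.3-fold at 66.9, 27.4 and 79.5 against 2.22 and 3.78 CPM, and Ltbp2, a matrix protein related to the binders of latent TGF-beta, rose 12.4-fold at 3.27, 2.01 and 0.413 against 19.4 and 27.7 CPM. Bmp4 and the BMP target Id1 rose 9.95-fold and 4.66-fold, and both lost their calls under the GC correction. Of 19 Wnt genes 2 fell (10.5%) and 0 rose: the ligand Wnt4 and the receptor Fzd6 fell 11.6-fold and 1.88-fold. Of 13 Hippo genes 2 rose and 1 fell (15.4% and 7.69%), with 0 higher without Ctr 1 or 3: Tead2 and Amotl2 rose 3.59-fold and 2.26-fold and Lats1 fell 1.59-fold, all 3 lost under the GC correction.

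Outside the lists, the rule for the largest changes took 10 called genes each way whose groups did not overlap, at an average log2 CPM of 3 or more. Those that rose and have not been named were Gpd1, glycerol-3-phosphate dehydrogenase, at 1.99, 5.47 and 0.206 against 54.1 and 65.6 CPM, Stac2, a calcium channel adaptor, at 3.27, 2.49 and 2.41 against 24.5 and 43.2 CPM, Adamts7, a matrix protease, at 2.99, 6.86 and 1.86 against 46.5 and 47.99 CPM and Atp5k, a subunit of ATP synthase, at 8.46, 2.08 and 3.65 against 41.4 and 40.3 CPM. Klf2, a flow-responsive factor, was at 7.11, 12.4 and 2.202 against 92.3 and 34.97 CPM and Cryab, a small heat shock protein, at 1.56, 10.3 and 1.79 against 34.2 and 37.8 CPM. The calls on Adamts7, Klf2 and Cryab were lost under the GC correction. Those that fell were near or under the floor in LMP1. Dmrt3 was at 8.18, 6.86 and 8.53 against 0 and 0.0651 CPM and Serpinb10 at 11.5, 16.9 and 120 against 0.158 and 0.261 CPM, while Krt15, a basal keratin, was at 25.3, 240.3 and 11.8 against 0.317 and 0.13 CPM and Nipal4, a barrier gene, at 2.702, 2.49 and 20.7 against 0.0528 and 0 CPM.

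Whether the genotype difference depended on the Lung prefix was tested by subtracting the difference between Lung-LMP1 and Lung-Ctr from that between LMP1 and Ctr. Of 13460 genes 120 (0.892%) were called, 11 positive and 109 negative, and 118 of them were also called between LMP1 and Ctr. The contrast of the Lung groups alone gave 0 calls in edgeR, with 2295 genes at an unadjusted p under 0.05, and 881 calls in DESeq2. Of the genes that rose here 834 of 991 had the same sign between the Lung groups, with median differences of 1.09 here and 0.53 there. Of those that fell here 883 of 1219 did, with medians of -1.28 and -0.23. Over all genes tested the medians were -0.01 here and -0.04 between the Lung groups. The share of all genes tested with the same sign in both contrasts was not counted. The counts of same-signed genes thus lack a background and do not show an agreement particular to the called genes.

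Epithelial genes were among the 120, with 5 of the 18 regulators and 3 of the 32 junction genes. Grhl2 averaged 116 and 115 CPM in Lung-Ctr and Lung-LMP1, and its difference of differences was -3.38 (adjusted p = 0.0239). Esrp1, Foxa1, Rab25, Lamb3 and Pkp3 gave the same direction, from -2.43 to -4.65. Of the 11 positive differences, Foxc1 differed by 1.68 and Pcbp4, an RNA-binding protein, by 3.67, having risen 7.499-fold between LMP1 and Ctr. The count of 120 depended on single libraries. It fell to 43 and 66 without Ctr 1 and 3, and it rose to 331 without Ctr 2. It fell furthest without either LMP1 library, in fits that leave 1 LMP1 sample.

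**Figure D4:**
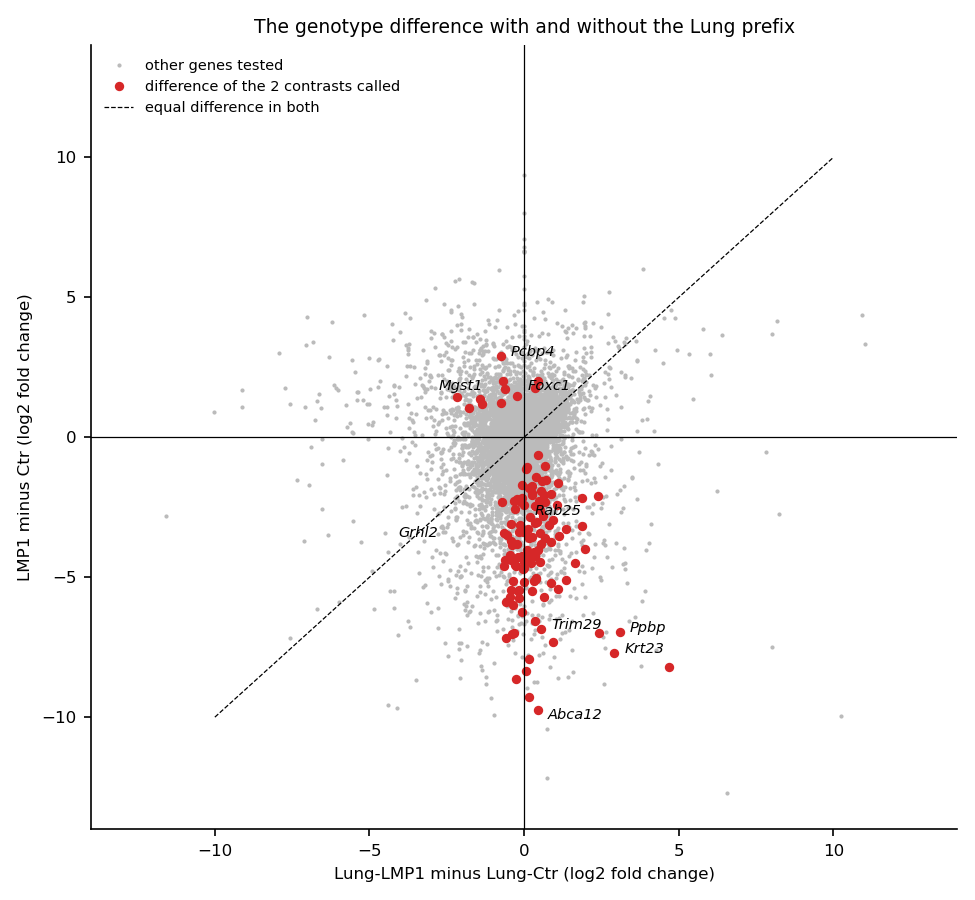
Each gene tested as a point, with the log2 difference between Lung-LMP1 and Lung-Ctr on the x axis and that between LMP1 and Ctr on the y axis, the 120 genes whose 2 differences were called unlike in red and equality as a dashed line. Most red points lie near 0 on the x axis and below 0 on the y axis, with Grhl2 and Rab25 among them.

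By chromosome, leaving aside chromosome Y with 1 lower of 5 tested, the share of genes called lower was highest on chromosome 16, with 66 of 423 genes (15.6%) against 9.06% of all genes tested. Snai2 and Trp63 both lie there. Chromosome 16 was also where 1 library stood apart: over 307 genes at 10 CPM or more, the median log2 level of Ctr 3 was 0.43 above the other Ctr libraries, with 84.4% of the genes higher. The same median was -0.30 for Ctr 1, -0.09 for Ctr 2 and -0.30 and -0.25 for LMP1 1 and 2. Ctr 3 itself is part of the reference for each of these values. Against the median of the 10 tumour libraries, Ctr 3 was at 0.425, Ctr 1 at -0.057 and Ctr 2 at 0.099. LMP1 1 and 2 were at -0.112 and -0.057 on that measure. Without Ctr 3, 38 of 418 genes of that chromosome (9.09%) were called lower, against 6.5% of all genes tested in that fit and 10.4% of those on chromosome 1. The copy number of the chromosome was not measured.

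On chromosome Y, 1 gene stood far apart in LMP1 and another in Ctr 3. All 5 libraries had reads of Y genes and Xist at 1.17 CPM or less. Ddx3y, an RNA helicase, was read at 129.5, 101 and 77.98 CPM in Ctr 1, 2 and 3 and 1.16 and 1.498 CPM in LMP1 1 and 2 (chrY:1260771-1286629, difference -6.27, SE 0.96, adjusted p = 0.00711). Uty, its neighbour at chrY:1096861-1245759, was at 58.1, 53.6 and 33.5 against 28.4 and 25.2 CPM and Eif2s3y, an initiation factor gene, at 84.8, 71.4 and 50.9 against 51.9 and 50.4 CPM. Kdm5d, a histone demethylase gene, was at 45, 43.5 and 2.82 against 35.3 and 30.5 CPM, so that it was low in Ctr 3 alone. In the Lung-prefixed tumours Ddx3y was at 118 and 129 CPM in Lung-Ctr and at 54.5, 7.88 and 76.9 CPM in Lung-LMP1.

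**Figure D5:**
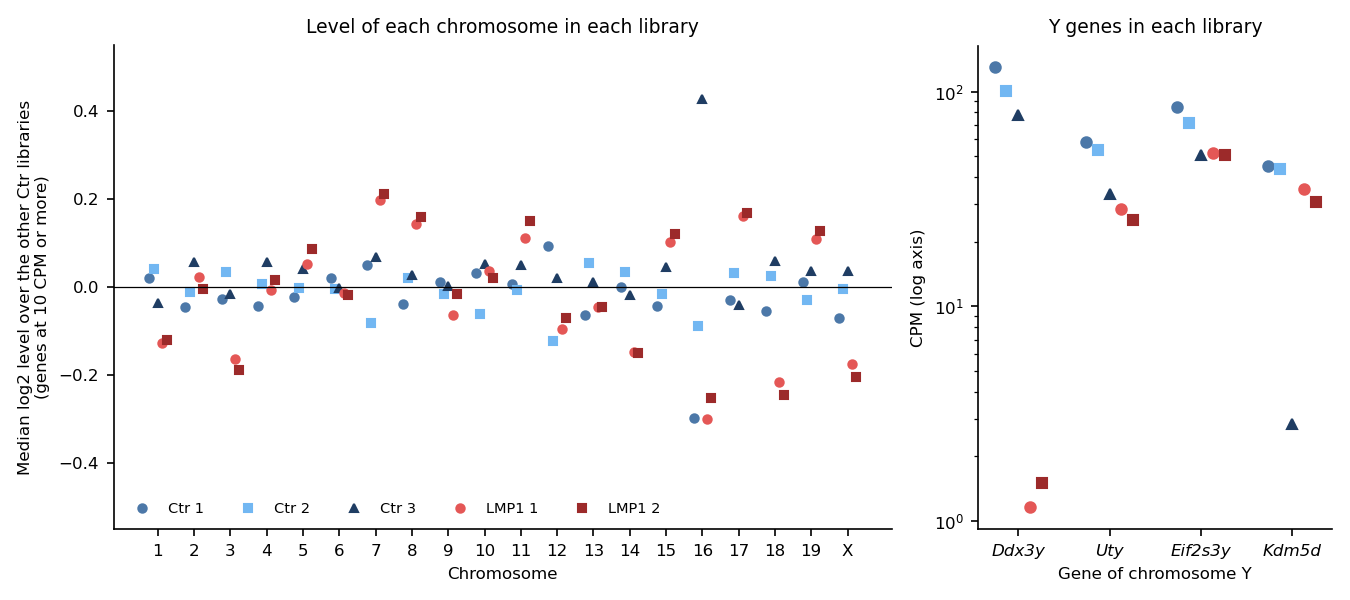
Left, median log2 level of the genes of each chromosome (at 10 CPM or more) in each library over the mean of the other Ctr libraries. Right, CPM of 4 genes of chromosome Y in each library on a log axis. Ctr 3 stands at 0.43 on chromosome 16, Ddx3y is at 1.16 and 1.498 CPM in LMP1 against 77.98 to 129.5 CPM in Ctr, and Kdm5d is at 2.82 CPM in Ctr 3.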

How the data were processed

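RNA was measured in tumour organoids by poly(A) RNA sequencing, and the values used are raw read counts per gene, which the authors deposited with 24421 genes. The submitters' processing notes name STAR, DESeq2, DESeq and the mm10 build, with no versions or settings. Of 27 gene symbols that a spreadsheet had turned into dates, 26 were restored, and 10 columns of scaled values per sample were not used. Positions, GC content and transcript length came from GENCODE vM21 on GRCm38, which matched 23510 genes.

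Counts of all 10 tumour libraries, 12535166 to 18067227 per library, were fitted together with edgeR 4.0.16 (R 4.3.3, limma 3.58.1) with TMM factors, its expression filter by group, 1 mean per group and the robust quasi-likelihood test with Benjamini-Hochberg adjustment over 13460 genes, at an adjusted p under 0.05. The shared fit leaves 6 residual degrees of freedom. The scripts were tested on simulated data. Alternatives were DESeq2 1.42.0, RLE factors, no low-count filter, the 5 compared libraries alone, each library left out, the replicate number as a block, and a GC content and length trend from mgcv 1.9.3.

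The text may name any member of the 38 lists and all regulators and EMT factors. Outside the lists it names the 10 called genes of largest change each way at an average log2 CPM of 3 or more and the 6 largest interaction genes each way, of which a few are not reported here. Ddx3y, Uty, Eif2s3y, Kdm5d and Xist were chosen as sex-linked markers. The members and lists were chosen with earlier results of these data known. Nectin1, Nectin4, Ccn1 and Ccn2 were not matched by symbol among the counts and were not tested here.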

Additional observations from a re-analysis of the deposited data

Results flagged for a closer look

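The following genes had a difference between LMP1 and Ctr that was called unlike the difference between Lung-LMP1 and Lung-Ctr, tested as an interaction in edgeR's quasi-likelihood fit with Benjamini-Hochberg adjustment. Each value is the first log2 difference minus the second. Epithelial regulators named here were Grhl2 (-3.38), Grhl3 (-3.96), Esrp1 (-2.43) and Foxa1 (-3.95). Junction and desmosome genes were Cldn7 (-3.42), Rab25 (-3.37) and Pkp3 (-3.05). Laminin, integrin and collagen genes were Lamb3 (-4.65), Itga3 (-2.0), Itgb6 (-4.10) and Col8a1 (-5.44).

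Barrier and keratin genes were Krt23 (-10.62), Abca12 (-10.20), Cers3 (-5.18) and Cnfn (-4.49), of which Krt23 and Abca12 had 3 and 2 counts over the LMP1 libraries. Developmental and signalling genes were Pitx1 (-6.15), Pax9 (-4.58), Hopx (-3.82), Wnt4 (-4.67), Bmp7 (-4.07), Mst1r (-5.41), Epha2 (-1.68), Snai3 (-3.48) and Serpinb5 (-5.28). The sterol enzyme gene Hmgcs1 gave -1.06. Other large negative differences were those of Ppbp (-10.06), Vnn1 (-9.41) and Trim29 (-7.41). Positive differences were those of Pcbp4 (3.67), Rgma (2.7), Amotl2 (2.55), Syde1 (2.35), Mgst1 (1.98) and Foxc1 (1.68). The labelled stage differs with genotype in both contrasts, so what sets these genes apart was not tested.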

How the results depend on the processing

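The count of 2210 called genes was 3576 in DESeq2, 1116 with the GC content and length correction, and 1244 with that correction and without Ctr 2, a setting chosen after seeing the data. Leaving out 1 library at a time gave 25 to 1920 genes, lowest without LMP1 1. Of the 2210 called genes, from 2189 to 2210 were tested and kept their sign in each setting run. The interaction count of 120 was 926 in DESeq2 and 4 to 331 with 1 library left out, lowest without LMP1 1 and highest without Ctr 2. Calls among the 640 tested list members, 164 in all, were 249 in DESeq2 and 3 to 170 with 1 library left out. Of the 20 genes of largest change, 14 kept their call under the GC correction, 18 without Ctr 2, 13 without Ctr 3 and 1 and 2 without LMP1 1 and 2. For 3 named genes not called with all libraries, the difference changed sign and passed only in settings without Ctr 2: with 1 library left out Ddr2 ran from -0.98 to 6.54, Mme from -1.78 to 8.60 and Il33 from -0.69 to 4.50, each highest without Ctr 2, and with the GC correction added Ddr2 was at 6.64 and Mme at 9.05. The cause of these changes was not tested, beyond the fewer samples in each fit.

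Ctr and LMP1 share replicate numbers 1 and 2, and the labels do not say that a number marks anything shared. For that reason the numbers were not taken as pairs. Deviations of same-numbered libraries from their group means correlated at -0.026 and -0.13. With 2 LMP1 libraries their deviations mirror each other, so these values cannot decide whether the libraries are paired. With the replicate block 483 genes were called, 2 in the interaction and 68 list members, and with the block and the GC correction 220, 2 and 46.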
